A study of Mus musculus with 2 samples.

Results

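The 10 genes described here encode the major histocompatibility complex (MHC) class I molecules of the mouse and parts of the machinery that loads them with peptide. They were chosen by symbol from the 26078 genes of the deposited matrices, and all 10 were found: H2-K1, H2-D1, B2m, H2-Q4, H2-Q6, H2-Q7, Tap1, Tapbp, Psmb8 and Psmb9. Each was measured by single-cell RNA sequencing of liver macrophage preparations from 1 mouse injected with Ter119, an antibody to an antigen of the red cell lineage, and from 1 mouse injected with saline. Both were C57BL/6J mice of 7 to 10 weeks. The Ter119 mouse received 35 ug subcutaneously and then 10 daily injections of 10 ug, and the saline mouse received a similar volume of saline. The livers were taken at 24 after the last injection, in a unit that the labels do not give, and the digested non-parenchymal cells were enriched on beads with antibodies to F4/80 and CD11b. Cells of both mice carried hashtag antibodies and were pooled, and each mouse gave 1 library.

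MHC class I molecules display peptides made inside a cell to CD8 T cells and to receptors of natural killer (NK) cells. The proteasome cuts proteins into peptides, the TAP transporter moves the peptides into the endoplasmic reticulum, and tapasin holds an empty class I molecule at the transporter until it binds one. Under interferon gamma, catalytic subunits of the proteasome are replaced by the immunoproteasome subunits Psmb8, Psmb9 and Psmb10, and in the liver sinusoidal endothelial cells and Kupffer cells, the resident macrophages, present antigen on class I. H2-K1 and H2-D1 encode the classical heavy chains, which are highly polymorphic between strains. H2-Q4, H2-Q6 and H2-Q7 are heavy chain genes of the less polymorphic Qa region, of which H2-Q7 encodes the Qa-2 antigen.

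The Ter119 library held 61892074 unique molecular identifiers (UMIs) in 25760 barcodes and the saline library 97181787 UMIs in 18354 barcodes. Among all these barcodes 133 sequences occurred in both libraries. Barcodes were kept from 1000 UMIs and 500 genes upwards and up to 15% mitochondrial UMIs, which left 13846 Ter119 barcodes (median 2803 UMIs) and 11572 saline barcodes (median 6239 UMIs). Erythroid transcripts made up 10.8% of UMIs in the kept Ter119 cells and 0.0136% in the kept saline cells. Cells were assigned to 9 types by marker genes that include none of the 10 genes, and the names of cell types stand for these gates. The Kupffer gate held 6810 Ter119 and 8833 saline cells, and the sinusoidal endothelial (LSEC) gate 1251 and 648. The neutrophil gate held 500 and 245 cells, classical monocytes 486 and 178, non-classical monocytes 346 and 91, conventional dendritic cells 152 and 132, T or NK cells 118 and 22, and B cells 50 and 71. The erythroid gate held 679 Ter119 cells and 0 saline cells. All 13 Kupffer markers were detected in the Kupffer gate of both libraries, but at different levels: Clec4f stood at 1015 counts per 1000000 UMIs (CPM) in Ter119 and 5361 CPM in saline cells, Timd4 at 25.5 and 583 CPM, and Marco at 4284 and 853 CPM.

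With 1 mouse and 1 library per group there is no replicate, so no test between the groups was possible, and every interval given covers counting error only. Levels are CPM of the counts summed over the cells of a gate, with exact Poisson 95% intervals, and ratios are Ter119 over saline. A 3' UMI counts 1 molecule whatever the length of the transcript. Genes that reached 20 CPM in either library were tested, and such a gene was counted as lower or higher when it stood 2-fold or more apart.

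All but B2m lie in the MHC region of chromosome 17, and B2m is on chromosome 2. On GRCm38, H2-K1 is at chr17:33996017-34000347 on the minus strand and H2-D1 at chr17:35262730-35267499 on the plus strand. H2-Q4 (chr17:35379617-35385290), H2-Q6 (chr17:35424850-35430055) and H2-Q7 (chr17:35439155-35443773) follow H2-D1 on the plus strand. Psmb9 (chr17:34181987-34187764, minus strand) and Tap1 (chr17:34187553-34197225, plus strand) are divergent neighbours whose RefSeq promoter windows share 275 bases, and Psmb8 (chr17:34197721-34201454, plus strand) lies directly beyond Tap1. Tapbp is at chr17:33915899-33929292 and B2m at chr2:122147686-122153083, both on the plus strand. All 10 are annotated as protein-coding genes.

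The promoters of the 5 heavy chain genes are shown because class I heavy chain promoters are known to carry a kappa B element followed by an interferon response element, and because the classical and the Qa genes differ in level in the results that follow. The stretches are 120 bases long, come from RefSeq on GRCm38.p6 and lie upstream of the RefSeq start, at H2-K1 chr17:34000369-34000488 (minus strand), H2-D1 chr17:35262893-35263012 (plus strand), H2-Q4 chr17:35379413-35379532 (plus strand), H2-Q6 chr17:35424647-35424766 (plus strand), H2-Q7 chr17:35438992-35439111 (plus strand). GENCODE places the start of the H2-D1 gene further upstream, at 35262730. Capitals mark the best ungapped match to the kappa B word GGGGATTCCCC and the interferon response word TTTCACTTC, which do not overlap each other. Both words were taken from the H2-K1 promoter, so their match there is by construction.
H2-K1: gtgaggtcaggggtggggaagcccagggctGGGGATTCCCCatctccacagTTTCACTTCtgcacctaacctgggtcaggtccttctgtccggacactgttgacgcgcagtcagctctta
H2-D1: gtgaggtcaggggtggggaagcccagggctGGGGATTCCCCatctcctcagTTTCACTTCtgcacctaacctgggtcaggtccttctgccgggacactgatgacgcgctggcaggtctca
H2-Q4: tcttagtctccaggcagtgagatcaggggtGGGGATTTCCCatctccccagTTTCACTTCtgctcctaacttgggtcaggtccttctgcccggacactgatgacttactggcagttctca
H2-Q6: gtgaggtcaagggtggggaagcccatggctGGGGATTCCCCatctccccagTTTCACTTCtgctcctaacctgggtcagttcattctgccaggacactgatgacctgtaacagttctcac
H2-Q7: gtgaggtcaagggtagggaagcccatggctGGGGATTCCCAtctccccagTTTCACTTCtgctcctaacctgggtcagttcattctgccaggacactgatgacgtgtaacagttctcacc
The kappa B word was exact in H2-K1, H2-D1 and H2-Q6. It differed by the single substitution C8T in H2-Q4, where positions count from 1 at the 5′ end of the word and the base of the word is given first. In H2-Q7 the ungapped match is written C11A, but the words start at -133 and -113 from the start there and at -173 and -152 in H2-Q6, so the difference is that of a word shorter by 1 base followed by the same flank. The interferon response word was exact in all 5. Searched on both strands (reverse complements GGGGAATCCCC and GAAGTGAAA), the kappa B word occurs in 10 of 32851 RefSeq promoter windows of 300 bases (0.0304%), the interferon response word in 166 (0.505%) and both words in 4 (0.0122%). The windows with both words belong to 3 genes, the H2-K1, H2-D1 and H2-Q6 shown here, so that share is no separate background. Neither word was exact in the windows of B2m, Tap1, Tapbp, Psmb8 or Psmb9, where the closest match to the kappa B word had 3 or 4 substitutions and that to the interferon response word 2. The windows of Tapbp (chr17:33919228-33919527), Psmb8 (chr17:34197945-34198244) and Psmb9 (chr17:34187281-34187580) lie inside the GENCODE gene. They do not cover the GENCODE start, which was not searched for these genes. The stretches of H2-K1 and H2-D1 share 112 of 120 bases. A match describes letters and is not evidence of binding.

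Reads can be ambiguous where genes share sequence near the 3′ end. Of the 90-base windows in the last 400 bases of the annotated coding transcripts, 32.2% of those of H2-Q6 also occur in other genes, with H2-Q7 first among them, against 12.5% for H2-Q4, whose listed matches hold no heavy chain gene, 0.177% for H2-K1 and 0% for H2-D1, H2-Q7 and the other 5 genes. The windows were sought in whole transcripts of other genes, so the 0% of H2-Q7 covers only its own last 400 bases. H2-Q6 counts, and H2-Q7 counts through reads from H2-Q6, are therefore uncertain where the authors' counting could assign reads to either gene.

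In Kupffer-gated cells the classical heavy chains were the abundant class I transcripts in both libraries, and both stood lower in the Ter119 library. H2-K1 stood at 1328 CPM (95% interval 1314 to 1342) in Ter119 cells and 2591 CPM (2579 to 2603) in saline cells, a ratio of 0.513 (0.507 to 0.518). H2-D1 stood at 1538 CPM (1523 to 1553) in Ter119 cells and 2329 CPM (2318 to 2341) in saline cells, a ratio of 0.660 (0.653 to 0.667). H2-K1 stood further below its saline level than H2-D1 did: there were 86.3 H2-K1 UMIs per 100 H2-D1 UMIs (95% binomial interval 85.1 to 87.6) in Ter119 cells and 111 (110 to 112) in saline cells. B2m, the light chain that every class I heavy chain needs to reach the cell surface, stood at 2453 CPM (2434 to 2472) in Ter119 cells and 4925 CPM (4909 to 4942) in saline cells, a ratio of 0.498 (0.494 to 0.502). The 5 heavy chains together gave 118 UMIs per 100 B2m UMIs in Ter119 cells and 102 in saline cells.

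The Qa genes were far less abundant in Kupffer-gated cells and stood further apart between the libraries than the classical genes. H2-Q7 stood at 12.6 CPM (11.3 to 14.0, from 341 UMIs) in Ter119 cells and 66.7 CPM (64.8 to 68.7, from 4539 UMIs) in saline cells, a ratio of 0.189 (0.169 to 0.211). H2-Q4 stood at 12.5 CPM (11.2 to 13.9) in Ter119 cells and 36.5 CPM (35.1 to 38.0) in saline cells, a ratio of 0.342 (0.304 to 0.383). H2-Q6, under 20 CPM in both libraries and so not counted, had 73 UMIs in Ter119 cells and 944 in saline cells, with a ratio of 0.195 (0.151 to 0.247). For each of these genes the counting intervals of the libraries lie apart. Relative to H2-K1 and H2-D1 within the same cells, the 3 Qa genes gave 0.970 UMIs per 100 classical UMIs (0.902 to 1.04) in Ter119 Kupffer-gated cells and 2.38 (2.33 to 2.43) in saline ones. This quotient does not depend on how either library is scaled.

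The peptide transporter and tapasin stood lower by less. Tap1, a subunit of the TAP transporter, stood at 87.7 CPM (84.2 to 91.3) in Ter119 and 129 CPM (127 to 132) in saline Kupffer-gated cells, a ratio of 0.678 (0.647 to 0.709). Tapbp, which encodes tapasin, stood at 251 CPM (245 to 257) in Ter119 and 424 CPM (419 to 429) in saline cells, a ratio of 0.592 (0.576 to 0.608). The immunoproteasome subunits differed from each other. Psmb9 stood at 117 CPM (112 to 121) in Ter119 and 214 CPM (210 to 217) in saline cells, a ratio of 0.546 (0.525 to 0.567), whereas Psmb8 stood at 202 CPM (197 to 208) in Ter119 and 241 CPM (237 to 245) in saline cells, a ratio of 0.838 (0.813 to 0.865), and its direction turned under TMM and median-of-ratios scaling, at log2 ratios of 0.04 and 0.06. Of Psmb9 and Tap1, which share their promoter region, there were 75.3 Tap1 UMIs per 100 Psmb9 UMIs (71.3 to 79.4) in Ter119 cells and 60.6 (59.0 to 62.2) in saline cells. In every other gate compared the intervals of the libraries overlapped. The quotient was lower in Ter119 in all of those gates but LSEC, as in neutrophil-gated cells with 43.1 (30.9 to 59.4) against 75.2 (56.9 to 99.1).

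Of the 9 genes with at least 20 CPM in Kupffer-gated cells, 3 were at least 2-fold lower in Ter119 (B2m, H2-Q4 and H2-Q7) and 0 higher, against 10.5% lower and 3.22% higher among all 6400 genes tested. Their median log2 ratio was -0.87, beside a median of -0.31 over all genes tested, of which 72.7% stood below 0. B2m sat close to the 2-fold line, and it was past it under 6 of the 11 settings tried, while H2-Q4 and H2-Q7 were past it under all 11 and H2-K1 under 1. H2-Q4 and H2-Q7 reached 20 CPM only in the saline library, where they are high, so they passed the filter through that library and no support is drawn from their count.

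**Figure D1:**
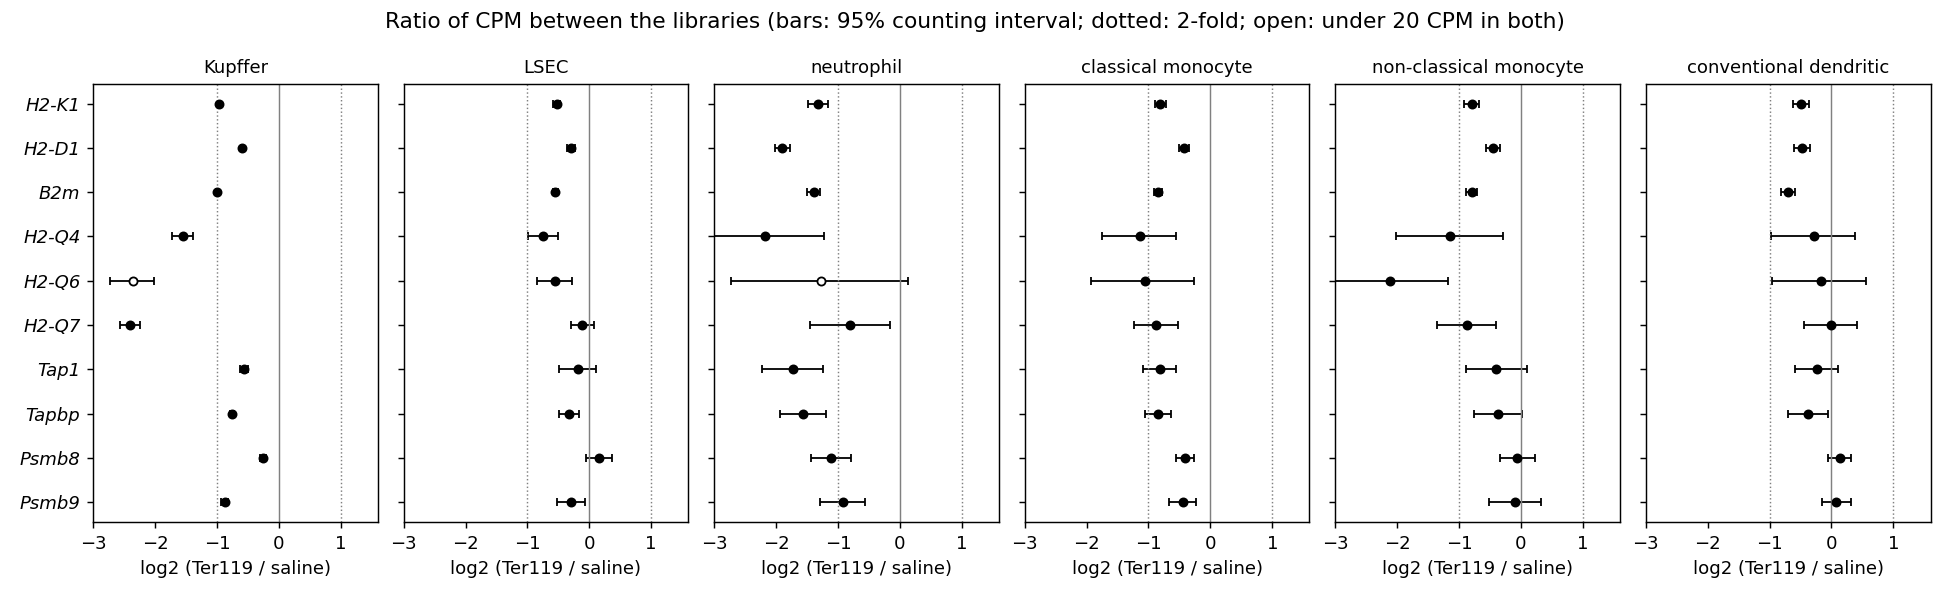
Log2 ratio of Ter119 over saline CPM (x axis) of the 10 genes (y axis) in 6 gated cell types, as points with 95% counting intervals. Dotted lines mark 2-fold and open points are genes under 20 CPM in both libraries. In Kupffer-gated cells H2-Q7 lies at -2.40 and Psmb8 at -0.25, while in LSEC-gated cells the points lie between -0.74 and 0.16.

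The Kupffer-gated cells of the libraries were not alike in other respects. In leiden clusters made without the 10 genes, the clusters named Kupffer each held nearly all their cells from 1 library, with 4229 Ter119 and 1 saline cell and 903 and 0 in the Ter119 clusters, and 0 and 4780, 6 and 1806, 1 and 1221, and 1 and 317 in the saline clusters. The Qa UMIs per 100 classical UMIs were 0.780 and 1.46 in these Ter119 clusters and between 1.69 and 3.11 in the saline ones. Markers of other types, depth and erythroid RNA also moved with the group. The summed level of the 12 LSEC markers, all detected in both libraries, was 608 CPM in Ter119 and 1122 CPM in saline Kupffer-gated cells, that of the 10 hepatocyte markers, all detected in both, 838 and 3105 CPM, and that of the 11 neutrophil markers, all detected in both, 654 and 110 CPM. The 8 classical monocyte markers, all detected in both, summed to 113 CPM in Ter119 and 593 CPM in saline cells, and the 8 non-classical monocyte markers, all detected in both, to 578 and 1406 CPM. All 10 erythroid markers were detected in Ter119 Kupffer-gated cells and 9 of 10, all but Epb42, in saline ones, at 8.43% and 0.0161% of UMIs. The part of these transcripts in the levels above was not tested. Median depth was 3839 UMIs in Ter119 and 7123 UMIs in saline cells, and at matched depth the Qa genes stood lower relative to the classical genes. There were 1.18 Qa UMIs per 100 classical UMIs in Ter119 and 2.20 in saline cells of 1000 to 2000 UMIs, 0.865 and 1.84 at 2000 to 4000, 0.993 and 2.11 at 4000 to 8000, and 1.04 and 2.53 at 8000 or more. The counting intervals lie apart in each of the 4 depth ranges.

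**Figure D2:**
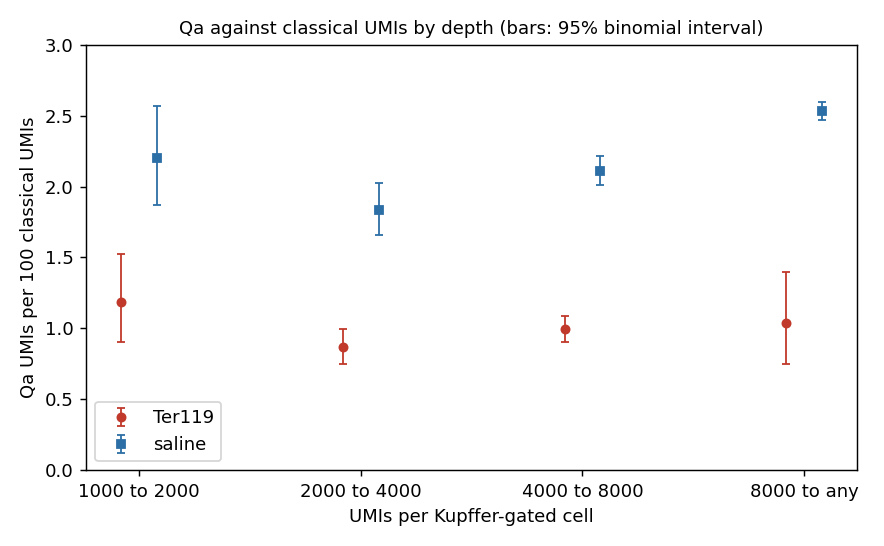
H2-Q4, H2-Q6 and H2-Q7 UMIs per 100 H2-K1 and H2-D1 UMIs (y axis) in Kupffer-gated cells of 4 depth ranges (x axis, UMIs per cell), Ter119 as circles and saline as squares with 95% binomial intervals. The Ter119 points lie between 0.865 and 1.18 and the saline points between 1.84 and 2.53.

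Within the Ter119 Kupffer-gated cells the quotient varied little with the erythroid content of the cell. It was 0.914 (0.820 to 1.02) in the 3049 cells with under 1% erythroid UMIs and 1.04 (0.840 to 1.27) in the 860 cells with 20 to 50%, and these intervals overlap. Gpnmb, a glycoprotein gene of lipid-laden and lysosome-rich macrophages, stood at 412 CPM in Ter119 and 0.485 CPM in saline Kupffer-gated cells. The 2649 Ter119 cells with 2 or more Gpnmb UMIs (median 4632 UMIs) had a quotient of 0.858 (0.767 to 0.957) and the 2385 without one (median 2932 UMIs) 1.02 (0.884 to 1.16). Among saline Kupffer-gated cells, the 180 with 5 or more UMIs of Cxcl10, an interferon-induced chemokine, had 3.61 Qa UMIs per 100 classical UMIs (3.26 to 4.002) and 201 CPM of Tap1, and the other 8653 cells had 2.34 (2.29 to 2.39) and 127 CPM. Their median depths were 11521.5 and 7014 UMIs, and the saline quotient was highest, at 2.53, in cells of 8000 or more UMIs. In Ter119 the same split gave 0.889 (0.107 to 3.25) in 17 cells and 0.971 (0.902 to 1.04) in the other 6793. The part of depth in these splits was not tested. Both splits were chosen after the values were seen.

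Thinned to 1000 UMIs per cell, a UMI of H2-Q7 was found in 1.41% of Ter119 and 5.33% of saline Kupffer-gated cells, and without thinning in 4.86% and 33.7%. In erythroid-gated barcodes of the Ter119 library (median 3004 UMIs, 61.8% of them erythroid) the thinned share was 1.91%, so the share in Ter119 Kupffer-gated cells was not above it. H2-Q4 stood at 1.07% in Ter119 Kupffer-gated and 1.03% in erythroid-gated cells, a difference within counting error, and H2-Q6 at 0.308% and 0.736%. The erythroid gate is not known to lack these genes and held 6683 CPM of Kupffer markers, and the saline library had 0 erythroid-gated cells. Whether the Ter119 Kupffer shares are background was therefore not tested. H2-K1 was found in 73.0% of Ter119 and 90.9% of saline Kupffer-gated cells, with 37.7% in erythroid-gated ones. B2m was found in 90.3% of Ter119 and 98.4% of saline Kupffer-gated cells, with 54.1% in erythroid-gated ones.

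Over the cell types, H2-Q7 spread more widely than H2-K1. In the Ter119 library, over the 8 types with at least 50 cells other than the erythroid gate, H2-Q7 was highest in T- or NK-gated cells, at 744 CPM (641 to 858), and lowest in Kupffer-gated cells, at 12.6 CPM. Its thinned share in Kupffer-gated cells was not above that of the erythroid gate, so no fold is given for its span. H2-K1 spanned 5.13-fold over these types, with 2849 CPM in T- or NK-gated cells and 555 CPM in neutrophil-gated cells. In the erythroid gate H2-K1 stood at 495 CPM, H2-Q7 at 22.001 CPM and H2-Q4 at 10.1 CPM. In the saline library, over 7 types, H2-Q7 spanned 3.96-fold and H2-K1 2.28-fold, with B-gated cells (264 CPM) and non-classical monocytes (3166 CPM) at the top. The spans of the libraries are over different types: the 22 saline T- or NK-gated cells, at 701 CPM of H2-Q7 and 3417 CPM of H2-K1, were too few to enter. Of the types ranked, the Kupffer gate was lowest for H2-Q4, H2-Q6 and H2-Q7 in both libraries, but not always beyond counting error. For H2-Q4 in Ter119 the neutrophil gate (12.7 CPM, 6.92 to 21.2) and the B gate (25.6 CPM, 5.28 to 74.8) lay within counting error of it. In saline the neutrophil gate did so for H2-Q7 (71.4 CPM, 51.0 to 97.3, against 66.7) and H2-Q6 (19.6 CPM, 9.81 to 35.1, against 13.9). H2-D1 and B2m were highest in non-classical monocytes in both libraries, at 2255 and 3289 CPM in Ter119 and 3081 and 5700 CPM in saline cells. Neighbours in these orders often lay within counting error: for H2-Q7 in the Ter119 library, LSEC-gated (201 CPM, 182 to 221), B-gated (171 CPM, 104 to 263), conventional dendritic (130 CPM, 100 to 165) and non-classical monocyte (115 CPM, 88.8 to 146) values each overlapped the next.

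**Figure D3:**
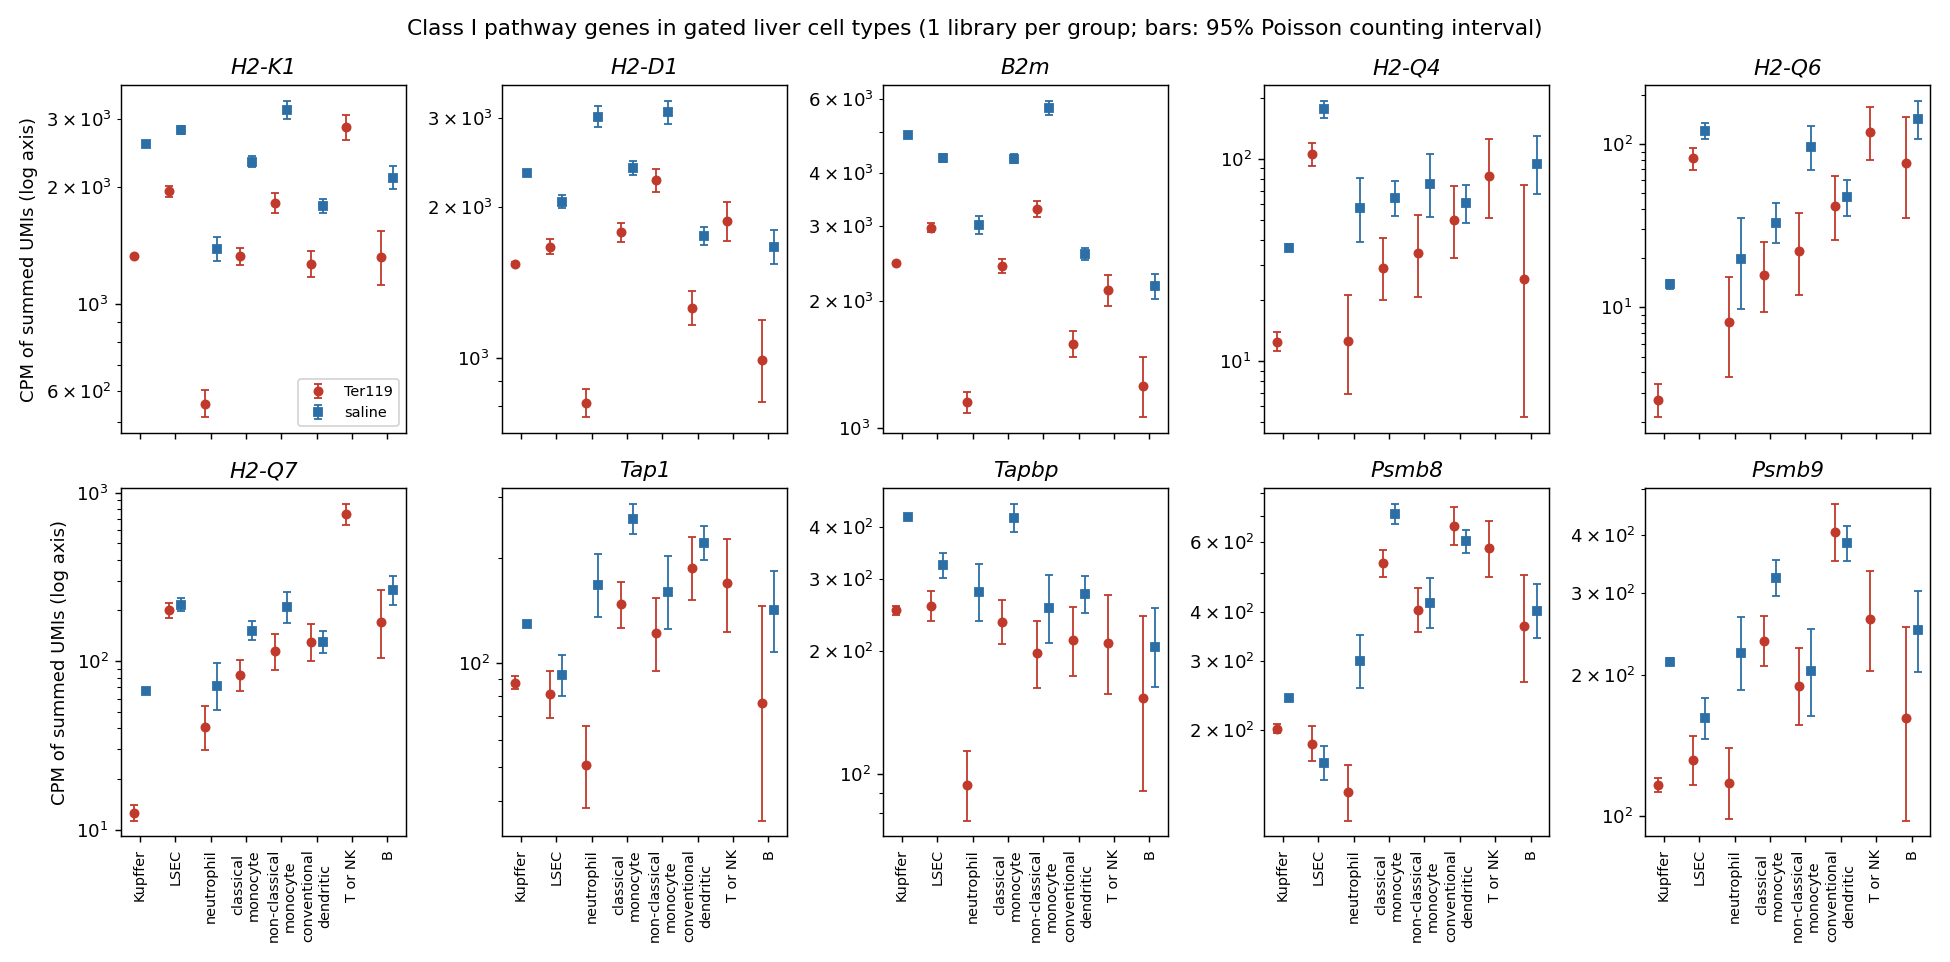
CPM of the 10 genes (y axes, log scale) in gated cell types with at least 50 cells (x axes), Ter119 as circles and saline as squares to their right, with 95% Poisson intervals. H2-Q7 in Ter119 cells runs between 12.6 CPM in the Kupffer gate and 744 CPM in the T or NK gate.

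In LSEC-gated cells H2-Q7 did not differ beyond counting error, while H2-Q4 and the classical genes stood lower in Ter119. H2-Q7 stood at 201 CPM (182 to 221) in Ter119 and 217 CPM (199 to 236) in saline LSEC-gated cells, a ratio of 0.925 (0.810 to 1.05). H2-K1 stood at 1953 CPM (1893 to 2014) in Ter119 and 2807 CPM (2740 to 2876) in saline cells, a ratio of 0.696 (0.669 to 0.724). None of the 10 genes was past 2-fold in either direction there, against 5.22% lower and 3.24% higher among all 7227 genes. The Qa genes gave 10.7 UMIs per 100 classical UMIs (9.96 to 11.5) in Ter119 and 10.6 (9.98 to 11.2) in saline LSEC-gated cells. Within the Qa group, H2-Q4 had a ratio of 0.598 (0.506 to 0.707), so that H2-Q7 UMIs per 100 H2-Q4 UMIs were 189 in Ter119 and 123 in saline LSEC-gated cells, against 101 and 183 in Kupffer-gated cells. In Ter119 Kupffer-gated cells the thinned shares of both genes were not above those of the erythroid gate beyond counting error. Median depth in this gate was 1438 UMIs in Ter119 and 3589.5 UMIs in saline cells. The 13 Kupffer markers, all detected in both, summed to 6675 CPM in Ter119 and 4568 CPM in saline LSEC-gated cells, the 10 hepatocyte markers, all detected in both, to 770 and 2540 CPM, and the 11 neutrophil markers to 1393 CPM with all detected in Ter119 and 156 CPM in saline, where Ly6g, Ngp and Ltf were at 0. Erythroid UMIs were 6.07% in Ter119 and 0.000547% in saline LSEC-gated cells. The part of these in the LSEC values was not tested. The leiden clusters named LSEC were also mostly of 1 library, with Qa quotients of 10.8 and 3.78 in those with 1226 and 679 Ter119 cells and 3.61 and 10.5 in those with 859 and 469 saline cells. Together these clusters held 1910 Ter119 and 1358 saline cells, against 1251 and 648 in the gate, so they include cells outside it. The clusters with 679 and 859 cells are therefore not shown to be LSEC alone. The part of mixed barcodes in their quotients was not tested.

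**Figure D4:**
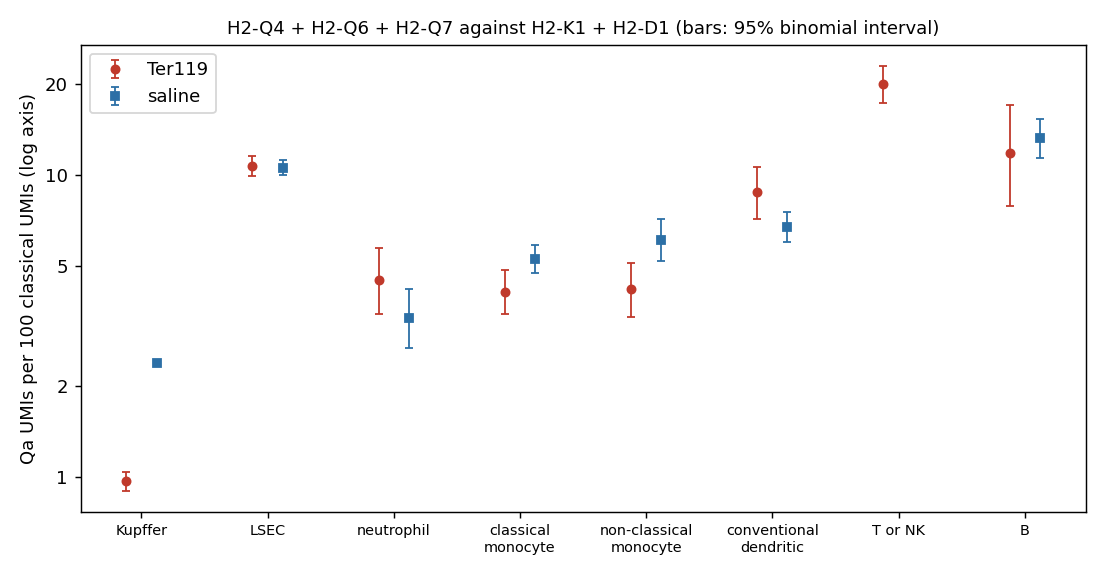
UMIs of H2-Q4, H2-Q6 and H2-Q7 per 100 UMIs of H2-K1 and H2-D1 (y axis, log scale) by gated cell type (x axis), Ter119 as circles and saline as squares with 95% binomial intervals, for gates of at least 50 cells. Kupffer-gated cells lie lowest, at 0.970 in Ter119 and 2.38 in saline, and T- or NK-gated Ter119 cells highest, at 20.02.

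In the monocyte gates both the classical and the Qa genes were lower in Ter119. In classical monocytes H2-K1 stood at 1331 CPM in Ter119 and 2328 CPM in saline cells (ratio 0.572, 0.538 to 0.607) and Psmb8 at 530 and 706 CPM (0.750, 0.678 to 0.830). In non-classical monocytes H2-K1 stood at 1822 CPM in Ter119 and 3166 CPM in saline cells (0.576, 0.531 to 0.624), while Psmb8 was at 404 and 421 CPM (0.959, 0.788 to 1.17). H2-Q4 and H2-Q6 were the 2 of 10 genes at least 2-fold lower in each gate, against 4.93% of genes in classical and 11.9% in non-classical monocytes, and 0 were higher, against 3.04% and 4.85%. In classical monocytes H2-Q4 was past 2-fold under 7 and H2-Q6 under 3 of the 10 settings tried, and in non-classical ones under 6 and 10. Their counts were low, at 33 and 18 UMIs in Ter119 and 99 and 51 in saline classical monocytes, and their ratios (0.453, 0.296 to 0.678, and 0.480, 0.264 to 0.836) overlapped that of H2-K1. In classical monocytes H2-Q6 reached 20 CPM only in the saline library, so no support is drawn from its count. H2-Q7 had a ratio of 0.546 (0.425 to 0.697) in classical and 0.545 (0.392 to 0.755) in non-classical monocytes. The Qa genes gave 4.11 UMIs per 100 classical UMIs (3.46 to 4.86) in Ter119 and 5.28 (4.75 to 5.85) in saline classical monocytes, and 4.196 (3.40 to 5.13) and 6.11 (5.20 to 7.15) in non-classical ones. In both gates H2-K1 was also lower relative to H2-D1, at 74.9 per 100 in Ter119 and 97.6 in saline classical monocytes and at 80.8 and 103 in non-classical ones. The Ter119 classical monocyte gate also held more of the granule protease genes of early myeloid cells, Prtn3 at 314 CPM against 14.3 CPM in saline and Elane at 305 against 1.30 CPM, whose part in these values was not tested.

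Conventional dendritic cells showed the highest Psmb9 of both libraries, at 405 CPM (352 to 465) in Ter119 and 384 CPM (352 to 418) in saline cells. Psmb8 stood at 659 CPM (590 to 734) and 602 CPM (562 to 644), with a ratio of 1.09 (0.961 to 1.25), and H2-K1 at 1272 and 1791 CPM, with a ratio of 0.711 (0.650 to 0.776). None of the 10 genes was past 2-fold there, against 8.76% of all genes lower and 3.81% higher. The make-up of this gate differed too, with Xcr1 at 258 CPM in Ter119 and 72.1 CPM in saline cells and Cd209a at 407 and 848 CPM, and its part was not tested.

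Neutrophil-gated cells gave the lowest ratios for most genes, 7 of 9 tested being at least 2-fold lower in Ter119, but 32.3% of all genes there were lower too. Of the 9, 0 were higher, against 13%. H2-Q4 reached 20 CPM only in the saline neutrophil gate, so no support is drawn from its count. H2-D1 stood at 812 CPM (760 to 867) in Ter119 and 3023 CPM (2881 to 3171) in saline cells, a ratio of 0.269 (0.248 to 0.291), and Tap1 at 50.6 and 168 CPM (0.302, 0.213 to 0.424). H2-K1 per 100 H2-D1 was 68.4 (61.6 to 75.8) in Ter119 and 45.9 (42.1 to 50.0) in saline cells, the reverse of the Kupffer order. The gates held neutrophils of different stages: Ngp, a gene of secondary granules made in immature neutrophils, stood at 28934 CPM in Ter119 and 75.0 CPM in saline cells, and Cxcr2, a chemokine receptor of mature neutrophils, at 134 and 1570 CPM. Of the leiden clusters named neutrophil, 1 led by Camp and Ngp held 648 Ter119 and 3 saline cells, and 1 led by Retnlg, S100a9 and S100a8 held 359 Ter119 and 342 saline cells. The Retnlg-led cluster has more saline cells than the 245 of the gate, so it is no subset of the gate. The part of cells outside the gate in its values was not tested. In the Retnlg-led cluster H2-D1 stood at 1537 CPM in Ter119 and 2790 CPM in saline cells and H2-K1 at 1189 and 1965 CPM, so the gap was smaller than in the gate. The Qa UMIs per 100 classical UMIs were 1.53 in Ter119 and 2.72 in saline cells of this cluster, against 4.497 (3.47 to 5.74) and 3.36 (2.67 to 4.18) in the gate, where the order is the other way and the intervals overlap.

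The lymphocyte gates were small and differed in make-up between the libraries, whose part in the values was not tested. In T- or NK-gated cells the NK gene Klre1 stood at 31.5 CPM in Ter119 and 390 CPM in saline cells and the T cell gene Cd3e at 846 and 422 CPM. The NK gene Eomes (146 and 15.9 CPM) and the T cell gene Il7r (82.6 and 398 CPM) went the other way. In B-gated cells Jchain stood at 5449 CPM in Ter119 and 72.3 CPM in saline cells and Cd79a at 1347 and 2638 CPM. In T- or NK-gated cells (22 in saline) H2-Q7 stood at 744 CPM in Ter119 and 701 CPM in saline cells, a ratio of 1.06 (0.820 to 1.38), and 1 of 10 genes, H2-Q4, was at least 2-fold lower, against 28.7% of all genes, with 0 higher, against 8.83%. In B-gated cells 1 of 10, again H2-Q4 with 3 UMIs in Ter119 and 38 in saline cells, was at least 2-fold lower, against 17.1% of all genes, with 0 higher, against 12.7%. H2-K1 exceeded H2-D1 in both, at 152 and 156 per 100 in Ter119 and saline T- or NK-gated cells and at 134 and 127 in B-gated cells.

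Each immunoproteasome subunit has a constitutive counterpart that it replaces: Psmb5 for Psmb8, Psmb6 for Psmb9 and Psmb7 for Psmb10. In Kupffer-gated cells the counterparts stood higher in the Ter119 library, Psmb5 at 240 CPM against 105 CPM in saline (ratio 2.28, 2.21 to 2.36) and Psmb6 at 181 against 95.3 CPM (1.90, 1.83 to 1.98). Psmb8 per 100 Psmb5 UMIs was therefore 84.3 (81.3 to 87.4) in Ter119 and 229 (223 to 236) in saline cells, and Psmb9 per 100 Psmb6 was 64.2 (61.4 to 67.2) and 224 (218 to 231). Psmb10 per 100 Psmb7 was 153 (145 to 161) in Ter119 and 231 (223 to 239) in saline cells. In LSEC-gated cells Psmb8 per 100 Psmb5 was 103 (89.2 to 119) in Ter119 and 127 (109 to 148) in saline cells, where the intervals overlap, and Psmb9 per 100 Psmb6 was 85.8 (72.6 to 101) and 126 (108 to 147), where they do not. Psmb10 per 100 Psmb7 was not lower in Ter119 LSEC-gated cells, at 218 (178 to 268) against 205 (170 to 247) in saline ones. In neutrophil-gated cells, which differ in stage as given above, Psmb8 per 100 Psmb5 was 108 (85.2 to 136) in Ter119 and 311 (228 to 431) in saline cells, and Psmb9 per 100 Psmb6 was 100.0 (77.8 to 129) and 463 (304 to 730). In classical monocytes Psmb8 per 100 Psmb5 was 210 (182 to 243) in Ter119 and 377 (331 to 430.5) in saline cells.

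**Figure D5:**
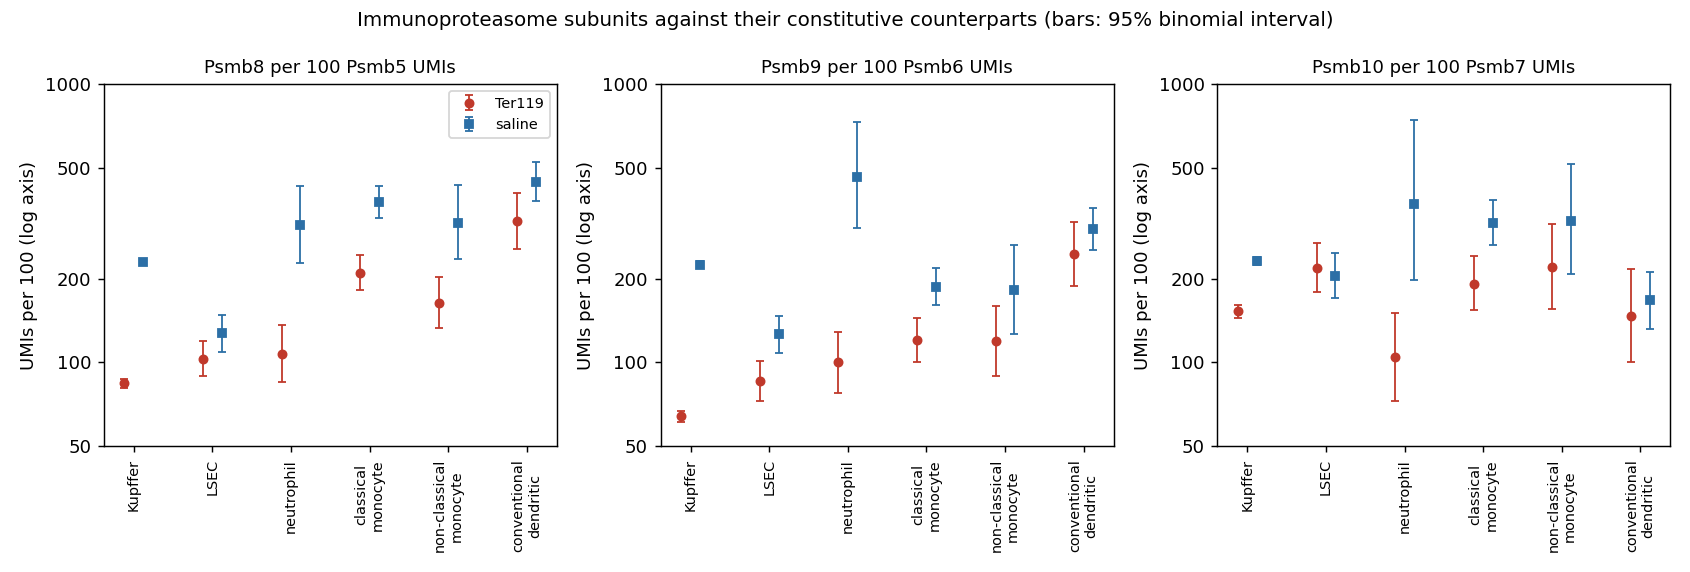
UMIs of Psmb8, Psmb9 and Psmb10 per 100 UMIs of their constitutive counterparts Psmb5, Psmb6 and Psmb7 (y axes, log scale) in 6 gated cell types (x axes), Ter119 as circles and saline as squares with 95% binomial intervals. In Kupffer-gated cells Psmb9 per 100 Psmb6 is 64.2 in Ter119 and 224 in saline.

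The rest of the pathway was read in Kupffer-gated cells from lists of genes. Among 7 tested heavy chain genes outside the 10, 3 were at least 2-fold lower and 1 higher in Ter119, against 10.5% and 3.22% of all genes tested in this gate, with a median log2 ratio of -0.99. H2-T23, which encodes Qa-1, the ligand of the NK receptor NKG2A, stood at 240 CPM in Ter119 and 516 CPM in saline cells (0.466, 0.454 to 0.479), and H2-M3, which presents formylated peptides, at 44.0 and 106 CPM (0.416, 0.391 to 0.442). H2-Q10, a secreted heavy chain made by hepatocytes, stood at 4.85 CPM in Ter119 and 29.4 CPM in saline cells (0.165, 0.137 to 0.197), beside the lower hepatocyte markers in Ter119 given above. Mr1, which presents vitamin metabolites to MAIT cells, was the higher one, at 29.996 CPM in Ter119 and 13.8 CPM in saline cells (2.17, 1.97 to 2.38). H2-Q10 and Mr1 each reached 20 CPM only in the library where they are high, so no support is drawn from their count.

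Of 19 other genes of peptide supply and loading, 0 were at least 2-fold lower and 0 higher, beside 10.5% and 3.22% of all genes, with a median log2 ratio of -0.30, close to that of all genes tested. Tap2, the partner of Tap1 in the transporter, stood at 39.2 CPM in Ter119 and 72.2 CPM in saline cells (0.543, 0.508 to 0.581), and Tapbpl, which encodes the peptide editor TAPBPR, at 23.5 and 37.7 CPM (0.623, 0.570 to 0.680). Lnpep, an aminopeptidase linked to cross-presentation, stood at 27.6 and 52.0 CPM (0.531, 0.490 to 0.575), and the intramembrane protease gene Sppl2a at 239 and 372 CPM (0.642, 0.625 to 0.660). Psmb10 stood at 127 CPM in Ter119 and 160 CPM in saline cells (0.795, 0.765 to 0.826). Of 14 constitutive proteasome genes 1, Psmb5, was at least 2-fold higher and 0 lower, and their median log2 ratio was 0.38, with Psma4 (1.49, 1.43 to 1.55) and Psma5 (1.47, 1.42 to 1.53) next after Psmb6.

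Among 16 regulators of class I genes, 4 were at least 2-fold lower in Ter119 Kupffer-gated cells and 0 higher, against 10.5% and 3.22% of all genes tested, with a median log2 ratio of -0.71. Among them were Nfkb1, which encodes a subunit of NF-kappa B (68.5 CPM in Ter119 and 170 CPM in saline cells, ratio 0.404), Irf1, an interferon-induced activator of class I and Tap1 (65.9 and 157 CPM, 0.420), and Ifngr1, a chain of the interferon gamma receptor (262 and 538 CPM, 0.488). Nlrc5, the transactivator of class I genes, stood at 17.6 CPM in Ter119 and 27.8 CPM in saline cells (0.630, 0.569 to 0.698). Of 15 genes induced by interferon gamma outside the pathway, 5 were at least 2-fold lower and 0 higher, against the same 10.5% and 3.22%, with a median of -0.82, and Irf1 counts here again. Gbp4, a guanylate-binding protein, stood at 17.1 and 59.3 CPM (0.289, 0.262 to 0.318), Cxcl10 at 20.1 and 59.8 CPM (0.336, 0.307 to 0.368), and Irgm2, an immunity-related GTPase, at 44.7 and 98.95 CPM (0.452, 0.425 to 0.480). Gbp4 reached 20 CPM only in the saline library, so no support is drawn from its count. The list was not uniform: 13 of the 15 stood below 0 on the log2 scale by CPM, of which Gbp7 (0.895, 0.861 to 0.929) and Cd274 (0.815, 0.765 to 0.867) lay above the median of all genes tested, and Gbp2 (1.55, 1.49 to 1.61) and Cxcl9 (1.59, 1.499 to 1.68) stood above.

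Likeness of pattern was described by Pearson's r of log2(CPM + 10) over 16 points, each a gate of at least 50 cells in 1 library, among 6123 genes that reach 50 CPM and are not gate markers. The points share 2 libraries and their depths, so no p is given. The sum of H2-K1 and H2-D1 was most like Brd2 (r = 0.94), Trmt1l (0.92), Lrp10 (0.92) and Cnot6l (0.91), and B2m had 0.91. The sum of the 3 Qa genes was most like Fryl (0.89), N4bp2l2 (0.88), Ilkap (0.88) and Vps13a (0.86). Psmb8 was most like Rps9 (0.93), Atp5e (0.93), Rpl37 (0.93) and Rps27a (0.91). H2-Q7 itself had 0.59 and Psmb8 0.50 with the sum of the classical genes.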

How the data were processed

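Per the file headers and the labels' protocols, the authors' deposited values are unnormalized UMI counts, as a gene by barcode matrix for each library, made with 10x Genomics 3' chemistry. Their headers name Cell Ranger 6.0.2. The submitters' processing notes name GRCm38.p6 as the build, and DESeq2 1.26.0, Seurat 3.2.3, Scanpy 1.7.0 and Cell Ranger 4.0.0 as tools. Neither the use of the hashtags to separate the mice nor the assignment of reads shared by paralogs was given in the sources used here.

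Kupffer cells had at least 20 Kupffer marker UMIs per 1000 non-erythroid UMIs and passed no other type. Other types had under 15, at least 3 own markers and a marker share at least 3 times the mean of the library, and erythroid barcodes had at least 50% erythroid UMIs. No doublet caller was run. The gate left out 771 Ter119 and 916 saline cells with markers of more than 1 type. A further 2683 and 436 were unassigned or fell to hepatocyte, stellate or fibroblast, or plasmacytoid dendritic markers, types not described here. The members, markers and lists were chosen with earlier results of these data known, and the gate thresholds were set after marker levels were seen. The text names all 10 genes, from each list up to 4 genes farthest from a log2 ratio of 0, and Tap2, Psmb10, Nlrc5 and Irf1; 1 gene that the rule names is not reported here. Cxcl9, Gbp2, Gbp7, Cd274, Gpnmb and the genes of cell stage and gate make-up were chosen after their values were seen.

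Sums, CPM and exact intervals were computed in python 3.11.15 with scipy 1.17.1 and tested on simulated data, TMM factors in edgeR 4.0.16, and leiden clusters with scanpy 1.11.5. Where a library had 0 counts, 3 counts were used as its floor. Thinned shares drew 1000 UMIs per cell. Gene positions came from GENCODE vM21 by identifier (10 of 10 matched).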

Additional observations from a re-analysis of the deposited data

Results flagged for a closer look

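There were 4 quotients within libraries that stood apart in opposite directions in Kupffer-gated cells and another gate, with counting intervals of Ter119 and saline that do not overlap in either gate; the difference between gates was not tested. H2-K1 per 100 H2-D1 UMIs in neutrophil-gated cells was 1.49 times as high in Ter119 as in saline cells, against 0.776 times in Kupffer-gated cells; the neutrophil gates differ in stage. Heavy chain UMIs per 100 B2m UMIs were 0.824 times as high in Ter119 as in saline neutrophil-gated cells, against 1.15 times in Kupffer-gated cells. H2-Q7 per 100 H2-Q4 UMIs was 1.55 times as high in Ter119 as in saline LSEC-gated cells, against 0.554 times in Kupffer-gated cells, where the Ter119 shares of both genes were not above those of the erythroid gate beyond counting error. H2-Q7 per 100 classical UMIs was 1.24 times as high in Ter119 as in saline LSEC-gated cells, against 0.325 times in Kupffer-gated cells, where the same holds for H2-Q7.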

How the results depend on the processing

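Over 10 other settings, the log2 ratios of the 10 genes in all gates gave 710 values, of which 539 moved by less than counting error, 171 by more and 0 changed the direction of a gene that was past 2-fold. The Qa quotient in Kupffer-gated cells, Qa UMIs per 100 classical UMIs, was 0.812 in Ter119 and 2.19 in saline cells with leiden clusters, 0.833 and 1.87 in cells of 2000 to 4000 UMIs (a setting added after seeing the data), and 2.70 in saline cells with at most 5% mitochondrial UMIs. The median log2 ratio of the 9 genes tested was -0.98 with at most 5% mitochondrial UMIs, -0.77 with leiden clusters, -0.75 without erythroid transcripts in the total, -0.58 with TMM and -0.56 with median-of-ratios factors. These factors raise every Kupffer log2 ratio by 0.30 and 0.31, and with them 357 and 348 genes were at least 2-fold lower and 339 and 345 higher, against 673 and 206 by CPM. Without a filter on low values 3040 genes were lower and 1314 higher, and with at least 100 CPM 205 and 84, since more or fewer genes were tested. No paired analysis was possible because each group has 1 mouse. Nothing here measures the spread between mice, and gates of under 100 cells carry few UMIs of the Qa genes.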

Other observations

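H2-Q10 gave 682 CPM in saline neutrophil-gated cells, from 382 UMIs, and 16.3 CPM in Ter119 ones, where the 10 hepatocyte markers summed to 298 CPM in Ter119 and 2421 CPM in saline cells. Saline Kupffer-gated cells had 29.4 CPM of H2-Q10 with 3105 CPM of these markers, and saline LSEC-gated cells 31.2 CPM with 2540 CPM. The neutrophil gates also differ in stage, and the source of these H2-Q10 UMIs was not tested.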
